A study of Arabidopsis thaliana with 12 samples.

Results

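AT3G23940, which encodes dihydroxyacid dehydratase, and AT3G58610, which encodes ketol-acid reductoisomerase, were the 2 genes of branched-chain amino acid synthesis described here. They were chosen as the spots annotated to 1 of these genes alone, and each had 1 such spot of 3439 on the array. The samples were total RNA of 6 tpt1 and 6 WT samples of Arabidopsis thaliana, numbered 1 to 6 in each group. The tpt1 mutant is described as having lost nearly all transport of triose phosphate in its chloroplasts, WT is the unmutated plant, and both groups are of ecotype Wassilevskija. The tissue, the age and the growth conditions are not given in the sources used here.

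Valine, leucine and isoleucine are made in plastids by a shared set of enzymes. Acetohydroxyacid synthase joins pyruvate to a second oxo acid, ketol-acid reductoisomerase rearranges and reduces the product with NADPH, dihydroxyacid dehydratase, an iron-sulphur enzyme, removes water, and aminotransferases finish valine and isoleucine, while leucine branches off through further steps. Because the middle enzymes serve all of these amino acids, the reductoisomerase and the dehydratase act one after the other in the same branches. The triose phosphate/phosphate translocator (TPT), which is impaired in tpt1, exports fixed carbon from the chloroplast to the cytosol.

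No gene of the rest of the pathway could be set beside them. Of a list of 20 genes of branched-chain synthesis, among them the subunits of acetohydroxyacid synthase, threonine deaminase, the aminotransferases and the enzymes of the leucine branch, only these 2 had a spot of their own. None of the 12 genes of pyruvate and threonine supply to plastids, the 10 of plastid iron-sulphur cluster assembly, the 10 of branched-chain breakdown and the 4 of glucosinolate chain elongation had one. Of 19 genes of other amino acid pathways in plastids 1 did, the histidine synthesis gene AT-HF (AT4G26900).

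The values are array intensities on a scale from 0 to 100, and the precision is limited by the number of arrays. The whole distribution differed between the groups, with a median log2 intensity of the spots above 0 between -1.42 and -0.88 in tpt1 samples and between -2.38 and -1.72 in WT samples. Changes are therefore given mainly after quantile normalization, which gives every array one distribution and makes each change relative to the rest of the array. No spot was annotated to TPT alone, so the labels could not be checked by that transcript, and 0 of 10 leaf, root and seed markers had a spot of their own. The labels do not say that samples came from separate plants, so p-values measure the spread between these samples, which may be technical. In bulk RNA, fewer cells of a type and less RNA per cell cannot be told apart.

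The dehydratase transcript was lower in tpt1 samples than in all but 1 of the WT samples once the arrays had one distribution, but the difference did not pass the test. On the deposited scale AT3G23940 read 0.270, 0.228, 0.153, 0.140, 0.139 and 0.162 in tpt1 samples 1 to 6, against 0.158, 0.224, 0.0862, 0.147, 0.117 and 0.147 in WT samples 1 to 6. The groups overlapped, with tpt1 1 and tpt1 2 above every WT sample and WT 3 and WT 5 below every tpt1 sample. After quantile normalization its log2 intensity was -2.77, -3.06, -3.24, -3.35, -2.94 and -2.68 in the tpt1 samples, against -2.50, -1.97, -3.24, -2.42, -2.21 and -1.98 in the WT samples. In this form 5 of 6 WT samples lay above every tpt1 sample, and WT 3 lay inside the tpt1 range. The means were -3.01 ± 0.26 in tpt1 and -2.38 ± 0.47 in WT (SD, n = 6 each), a log2 change of -0.62 (SE 0.26, limma adjusted p = 0.149, unadjusted p = 0.0344). That is 0.65 times the WT level, with a 95% interval of 0.438 to 0.964 times that takes no account of the other spots tested. Over all 2849 tested spots 12.8% passed an adjusted p of 0.05 and 6.39% passed as lower in tpt1, against 31.8% and 14.3% when same-numbered samples were treated as pairs. In that paired fit AT3G23940 had the same log2 change and did not pass either (limma adjusted p = 0.0604).

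The spread of AT3G23940 was wider in WT than in tpt1 through 1 sample, WT 3. The range was 1.28 on the normalized log2 scale in WT and 0.67 in tpt1. WT 3 was at -3.24, and the rest of the WT samples lay between -2.50 and -1.97. Without WT 3 the log2 change was -0.79 and passed (limma adjusted p = 0.0463), in a fit in which 10.9% of spots passed and 5.62% passed as lower. WT 3 also had 603 spots at 0, the most of any of the 12 samples. Its neighbour WT 4 had nearly as many, 589, with AT3G23940 at -2.42 on the normalized log2 scale. In tpt1 the numbers 3 and 4 had the most as well, at 476 and 463. The part of the zeros in the low value of WT 3 was not tested.

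The reductoisomerase transcript did not pass after quantile normalization, where its group means differed by far less than the spread within either group. AT3G58610 read 0.298, 0.302, 0.404, 0.432, 0.426 and 0.461 in tpt1 samples 1 to 6, against 0.185, 0.231, 0.169, 0.234, 0.175 and 0.193 in WT samples 1 to 6 on the deposited scale. There all tpt1 samples lay above all WT samples. After quantile normalization the log2 values were -2.58, -2.55, -1.79, -1.68, -1.43 and -1.30 in the tpt1 samples, against -2.29, -1.93, -2.24, -1.76, -1.69 and -1.60 in the WT samples. The groups then overlapped, with tpt1 1 and tpt1 2 below every WT sample and tpt1 5 and tpt1 6 above every WT sample. The means were -1.89 ± 0.55 in tpt1 and -1.92 ± 0.29 in WT (SD, n = 6 each), a log2 change of 0.03 (SE 0.26, limma adjusted p = 0.953). The 95% interval, 0.69 to 1.51 times the WT level, still allows changes of that size in either direction.

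**Figure D1:**
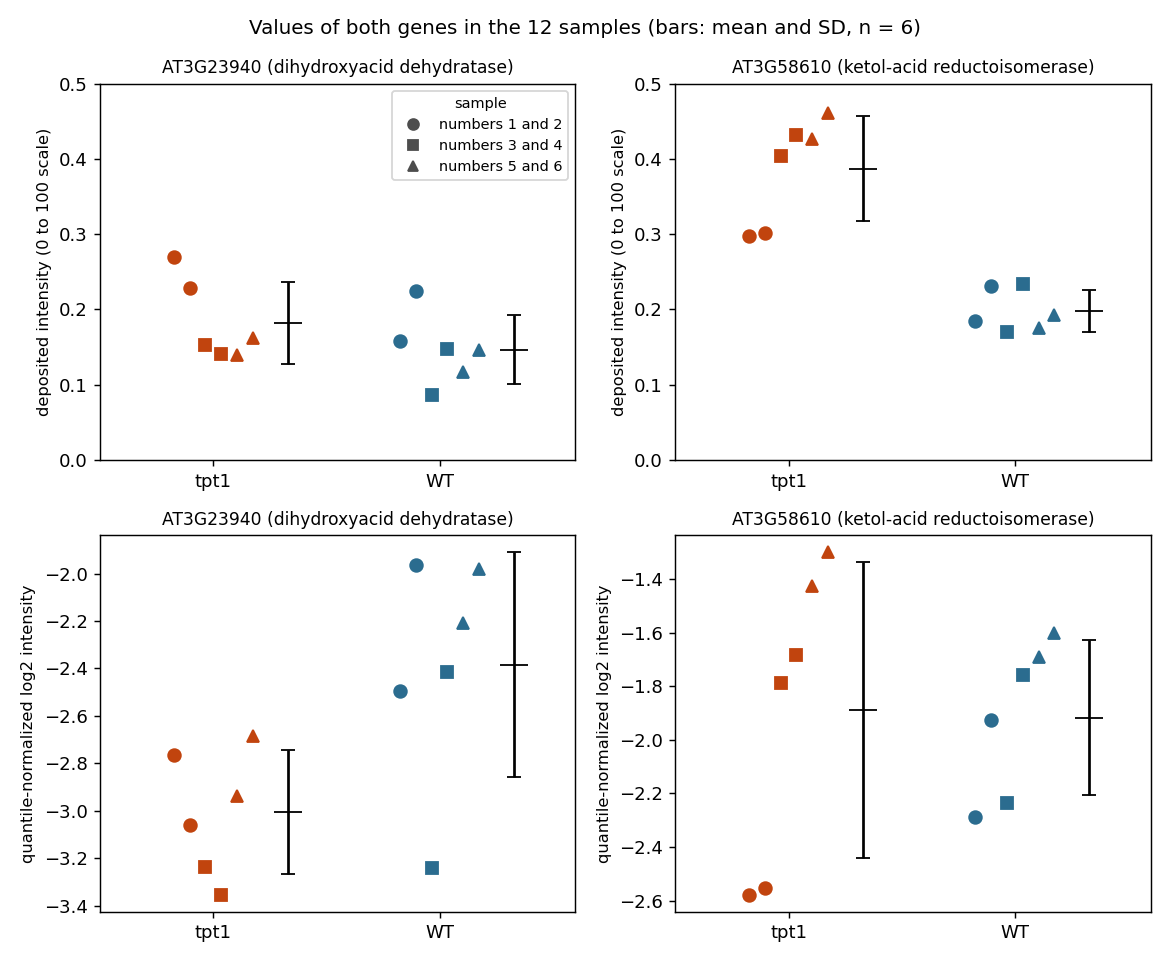
Values of AT3G23940 (left) and AT3G58610 (right) in each sample, as deposited intensity (top, linear axis) and as quantile-normalized log2 intensity (bottom), with tpt1 left of WT; symbols mark the sample numbers and bars show the mean and SD of 6 samples. For AT3G58610 the groups are apart on the deposited scale and overlap after normalization, and for AT3G23940 5 of 6 WT samples lie above all tpt1 samples after normalization.

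The change of each gene depended on how the arrays were put on one scale. On the deposited scale AT3G58610 rose 1.94-fold in tpt1 (log2 change 0.96, SE 0.19, limma adjusted p = 0.00125), in a fit that called 49% of all spots, with 46.4% of all spots called higher, and in which the median spot was higher by 0.86. AT3G23940 had a log2 change of 0.33 there (SE 0.29, adjusted p = 0.35), which is above 0 but below that median. The reductoisomerase gene was thus at the 57.5th percentile of the changes of all tested spots on the deposited scale and at the 45.9th after quantile normalization. The dehydratase gene was at the 21.1st and at the 12.5th. After median centring of the arrays the log2 changes were -0.54 for AT3G23940 (adjusted p = 0.207) and 0.10 for AT3G58610 (adjusted p = 0.85). With cyclic loess they were -0.65 for AT3G23940 (adjusted p = 0.144) and -0.01 for AT3G58610 (adjusted p = 0.99). With the spots split by mean brightness into 4 equal classes, the dimmest class, which held AT3G23940, had a median deposited change of 1.02, and the next, which held AT3G58610, had one of 1.01. AT3G23940 was thus dim, while AT3G58610 lay nearer the middle, at a mean percentile of 42.1 in tpt1 and 40.7 in WT among spots above 0. The spread of both genes within groups was below that of the median tested spot, at a residual SD of 0.38 for AT3G23940 and 0.44 for AT3G58610 against 0.51.

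**Figure D2:**
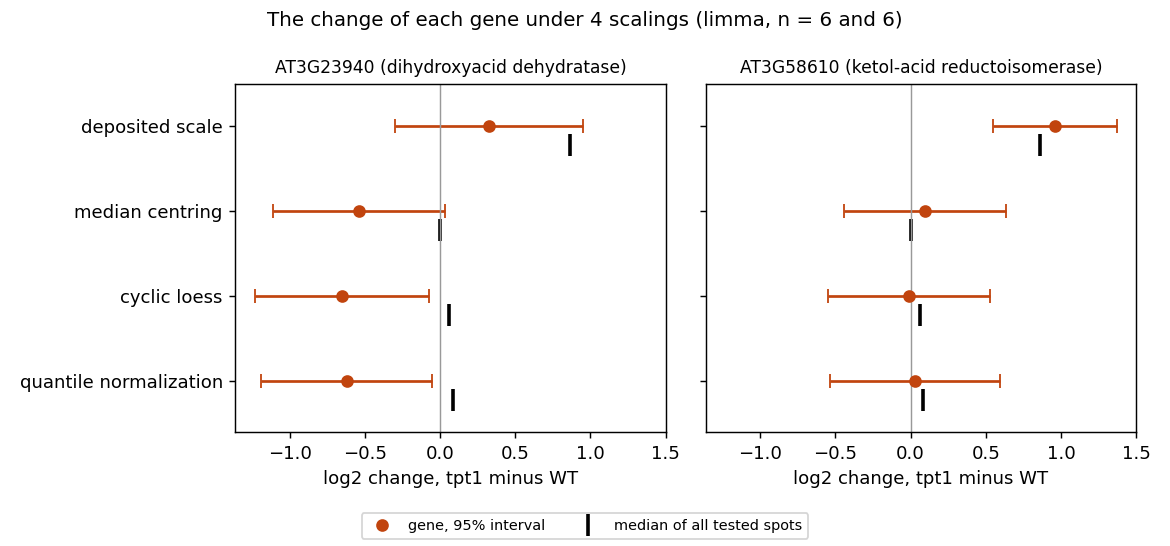
Log2 change of each gene, tpt1 minus WT, with its 95% interval from limma under 4 scalings, and the median change of all 2849 tested spots as a black tick. The intervals treat the samples of a group as independent. The intervals of AT3G23940 lie left of the tick after quantile normalization and cyclic loess, and the AT3G58610 points lie within 0.1 of the tick in all 4 scalings.

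A rank within the array does not depend on its scale. AT3G23940 stood at the 21.7, 17.2, 14.8, 13.4, 19.0 and 23.2 percentile of the spots above 0 in tpt1 samples 1 to 6, against 26.9, 39.2, 14.7, 28.6, 33.2 and 38.8 in WT samples 1 to 6. Again 5 of 6 WT samples were above every tpt1 sample. The mean percentile was lower in tpt1, at 18.2 ± 3.8, against 30.2 ± 9.2 in WT (SD, n = 6 each; two-sided exact permutation test, p = 0.0195, and 0.0584 adjusted over the 3 exact tests made). With groups exchanged only within a sample number the exact p was 0.0625, where the smallest possible is 0.0312. With samples of neighbouring numbers averaged to 3 values per group it was 0.1 (exact permutation test, adjusted p = 0.3), the smallest possible there, so that test could not pass. The mean percentile differed by -11.2 without numbers 1 and 2 (exact permutation test, adjusted p = 0.171). It differed by -14.2 without 3 and 4 (adjusted p = 0.0857) and by -10.6 without 5 and 6 (adjusted p = 0.343). The difference of -12.0 in the mean percentile passed after adjustment without WT 3 (-15.1, exact permutation test, adjusted p = 0.013). Without tpt1 1 it was -12.7 with an adjusted p of 0.039, although its unadjusted exact p rose from 0.0195 to 0.026. The adjustment over the 3 tests eased there because the exact p for the ratio of the 2 spots, described below, fell to 0.0173. For AT3G58610 the mean percentile was 42.1 ± 13.9 in tpt1 and 40.7 ± 7.4 in WT (two-sided exact permutation test, n = 6 each, p = 0.818).

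The spread of the reductoisomerase gene in tpt1 followed the sample numbers. Samples with neighbouring numbers (1 and 2, 3 and 4, 5 and 6) gave nearly the same reading in tpt1, with gaps of 0.02 to 0.12 on the normalized log2 scale, while the 6 samples together spanned 1.28. In WT the gaps were 0.09 to 0.48 and the span 0.69. For AT3G23940 neighbours differed by 0.12 to 0.29 in tpt1 and by 0.23 to 0.83 in WT. The labels do not say what a number marks, so whether neighbours share a plant, an extract or an array is not known.

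AT3G58610 was lower in tpt1 in one of these sets of numbers and higher in the others, and AT3G23940 was lower in all of them. AT3G58610 averaged -2.57 in tpt1 and -2.11 in WT in numbers 1 and 2, a log2 difference of -0.46. In numbers 3 and 4 the difference was 0.26, and in numbers 5 and 6 it was 0.28. AT3G23940 had differences of -0.68, -0.47 and -0.72 in the 3 sets. Taken by single sample numbers, it was lower in tpt1 in 5 of 6 pairs, with number 3 at 0.01. A limma test of whether the change differs between the sets passed for neither gene (adjusted p = 0.963 for AT3G23940 and 0.34 for AT3G58610), in a fit of 2383 spots of which 6.67% passed. On the deposited scale both were higher in tpt1 in all 3 sets, AT3G58610 in 6 of 6 pairs and by 0.54, 1.07 and 1.27, and AT3G23940 in 5 of 6 pairs and by 0.40, 0.38 and 0.20. With the set as a block in the quantile-normalized fit AT3G23940 passed as lower at the same log2 change of -0.62 (limma adjusted p = 0.043), where 30.4% of all spots passed and 13.7% passed as lower. It did not pass with that block once neighbours were averaged to 1 value per set (adjusted p = 0.159), where 12.3% passed, nor with neighbours as a random block (adjusted p = 0.55), where 4.28% passed.

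The log ratio of the 2 spots on one array shows whether their transcripts changed unequally, and a factor that scales the array leaves it as it is. Its own level says nothing of which transcript is the more abundant, since the spots are different probes. The log2 ratio of AT3G23940 over AT3G58610 was -0.14, -0.40, -1.40, -1.62, -1.62 and -1.51 in tpt1 samples 1 to 6, against -0.23, -0.04, -0.97, -0.67, -0.59 and -0.39 in WT samples 1 to 6. The 4 tpt1 samples numbered 3 to 6 lay below every WT sample, and tpt1 1 and tpt1 2 lay among them. The mean was -1.12 ± 0.66 in tpt1 and -0.48 ± 0.33 in WT, a difference of -0.63 that did not pass (two-sided exact permutation test, n = 6 each, p = 0.0649, and 0.0974 adjusted over the 3 exact tests). With groups exchanged only within a sample number the exact p was 0.0625. With neighbours averaged to 3 values per group it was 0.3 (exact permutation test, adjusted p = 0.45), where the smallest possible is 0.1. The difference was -0.14 in numbers 1 and 2, -0.69 in numbers 3 and 4 and -1.07 in numbers 5 and 6. Without tpt1 1 it was -0.83 (exact permutation test, p = 0.0173, adjusted p = 0.039). That pass came only through the joint adjustment with the AT3G23940 percentile, whose exact p was 0.026 there. Without numbers 1 and 2 the ratio difference was -0.88 (exact permutation test, p = 0.0286, the smallest that 4 against 4 samples allow, and 0.0857 adjusted), without numbers 3 and 4 it was -0.61 (exact p = 0.257), and without numbers 5 and 6 it was -0.41 (exact p = 0.343).

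**Figure D3:**
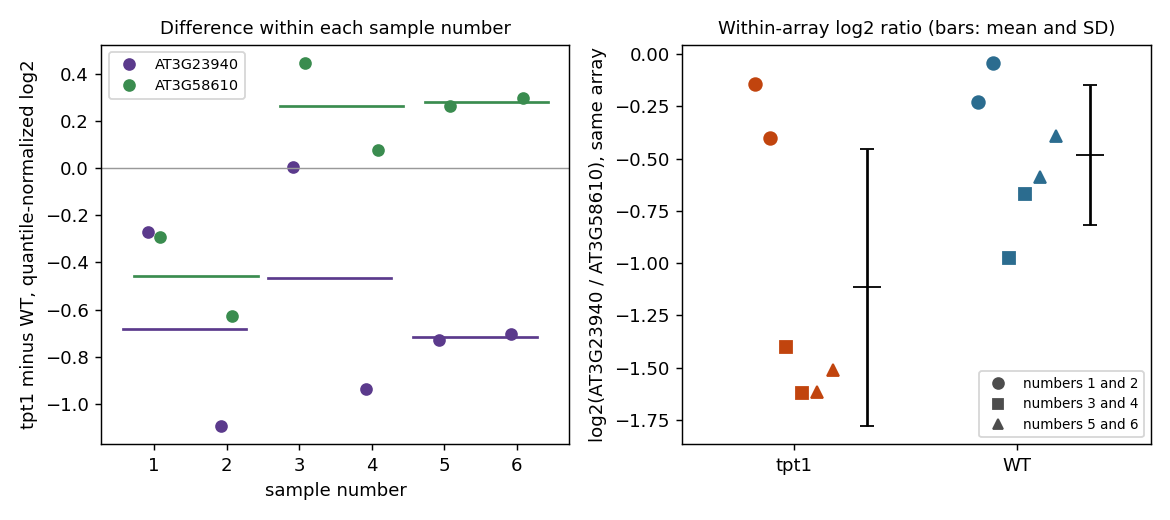
Left, the difference tpt1 minus WT in quantile-normalized log2 intensity at each sample number, with a line at the mean of neighbouring numbers; right, the log2 ratio of AT3G23940 over AT3G58610 on each array, tpt1 left of WT, with mean and SD of 6 samples. AT3G58610 is below 0 at numbers 1 and 2 and above 0 at the others, and the ratios of tpt1 samples 3 to 6 lie below all WT ratios.

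Each gene was also set beside the 475 other genes with a spot of their own above 0 in all 12 samples, by Pearson's r of the normalized log2 values after subtraction of the group means. These r are descriptions over 12 samples. Both genes of a pair were read on the same array, and the groups share sample numbers. The genes most like AT3G58610 were AT4G03150 (r = 0.96), AT2G32040 (0.95), GH9B11 (AT2G44560, a glycosyl hydrolase of family 9; 0.95), AT4G16410 (0.91) and AT2G27290 (0.91). They shared the low readings in tpt1 1 and tpt1 2, and without these 2 samples their r ran from 0.78 to 0.94. Of the 5, AT2G32040, a folate transporter of the chloroplast envelope, passed as higher in tpt1 (log2 change 0.70, SE 0.19, limma adjusted p = 0.0312), and the others had changes of 0.12 to 0.71 that did not pass. The call of AT2G32040 was lost with median centring (0.38, adjusted p = 0.309) and held in only 4 of the 12 fits that leave out 1 sample, those without tpt1 1, tpt1 2, WT 5 or WT 6. It was also lost with neighbours as a random block (adjusted p = 0.0832), in the exact rank-sum test (adjusted p = 0.0909) and without numbers 3 and 4 (adjusted p = 0.247). When same-numbered samples were paired it passed (adjusted p = 0.00268), after median centring too (0.0289), and so did GH9B11 (0.0465) and AT2G27290 (0.0111) after quantile normalization, both higher in tpt1. In the unpaired fit on the deposited scale AT2G27290 had a log2 change of only 0.03 (limma adjusted p = 0.889) and GH9B11 one of 1.10. The median spot was higher by 0.86 there. In the paired fit 31.8% of all spots passed after quantile normalization, and 17.5% passed as higher. After median centring these shares were 34.7% and 13.2%.

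The genes most like AT3G23940 were AT1G70180 (r = 0.88), chr31 (AT1G05490, a chromatin remodelling protein; 0.87), GLR2.7 (AT2G29120, a glutamate receptor-like channel; 0.83), AT3G02690 (0.82) and AT2G48090 (0.82). WT 3 was the lowest WT sample for all 5, as it was for AT3G23940, and without it their r ran from 0.42 to 0.73. None of them passed, with log2 changes of 0.06 to 2.45. When same-numbered samples were paired AT1G70180 (limma adjusted p = 0.013) and AT2G48090 (adjusted p = 0.0393) passed as higher in tpt1, as did 17.5% of all spots in that fit. The 2 branched-chain genes were less like each other, with an r of 0.28, which put AT3G58610 at place 121 of 475 for AT3G23940 and AT3G23940 at place 162 for AT3G58610.

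**Figure D4:**
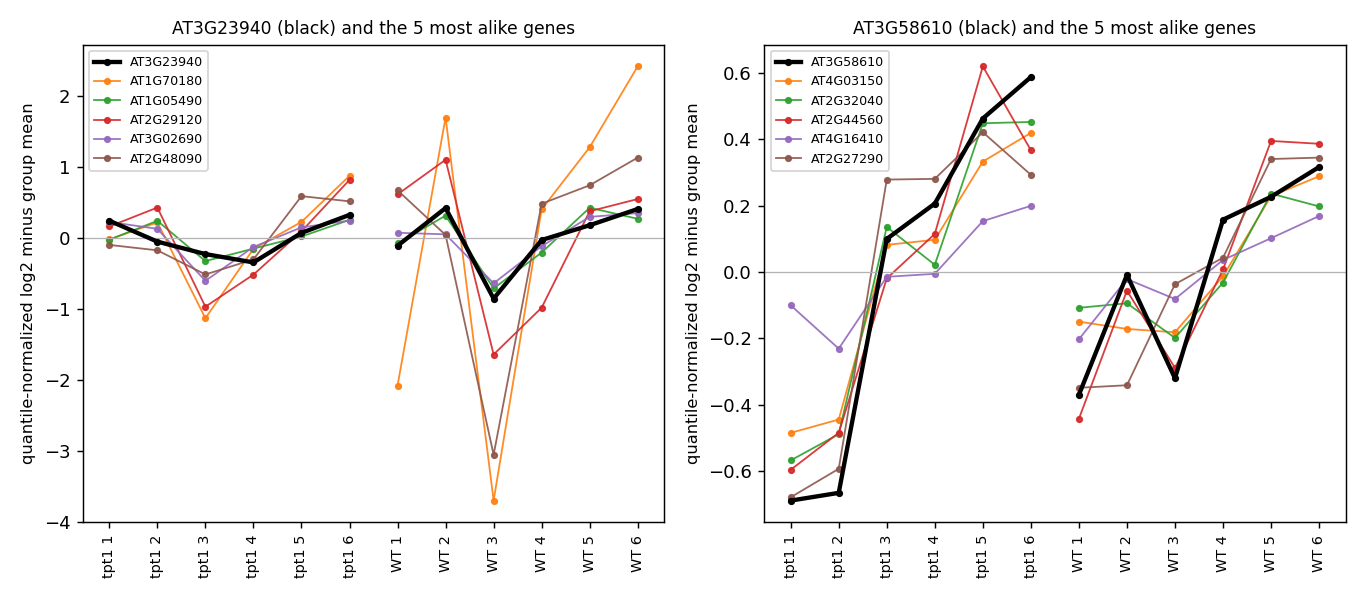
Quantile-normalized log2 intensity minus the group mean in each sample, tpt1 left of WT, for AT3G23940 (left, black) and AT3G58610 (right, black) with the 5 genes of highest r to each. WT 3 is the low point of the left panel, and tpt1 1 and tpt1 2 are the low points of AT3G58610.

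Among the 19 listed genes of other amino acid pathways in plastids, only 1, of histidine synthesis, had a spot of its own. AT-HF (AT4G26900), an enzyme of the histidine pathway in plastids, rose 3.24-fold in tpt1 (log2 change 1.69, SE 0.12, limma adjusted p = 3.94e-06), with a 95% interval of 2.72-fold to 3.86-fold. It passed when any 1 sample was left out, and after median centring the rise was 1.92-fold (adjusted p = 0.0011). Whether its change differs from that of the branched-chain genes was not tested.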

How the data were processed

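The deposited values were spot intensities the authors gave on a linear scale from 0 to 100 for 12 samples. The steps before deposit (reading, background, scaling) are not given in the sources used here, so scale, centring and the meaning of a 0 stay unknown. Groups and numbers came from the sample labels. Zeros were set as missing and log2 values quantile normalized, since array medians differed by more than 0.1. Spots with at least 4 values above 0 per group were tested with limma 3.58.1 (lmFit, eBayes with trend; statmod 1.5.0, R 4.3.3), p-values adjusted by Benjamini-Hochberg across every tested spot, and calls made under 0.05. Exact permutation tests used scipy 1.17.1, and figures used matplotlib 3.10.9 in Python 3.11.15. The fits were tested on simulated data with independent noise in each sample. In the real data neighbouring numbers correlated at 0.63 in the random-block fit, so that simulation cannot show the error rate of the fits here.

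Of 692 spots with 1 gene in the platform annotation, 690 matched a locus of a TAIR10.1 table, used for names only. Coordinates and sequences are not used here.

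The members, the 75 genes of the lists, the sets of neighbouring numbers and the tests were chosen with earlier results of these data known. The text names both members, list genes with a spot of their own, and the 5 genes most like each member. Samples of the same number, after subtraction of group means, correlated at 0.42 to 0.56 over spots, all above 0.1, which meets the rule used for pairing. The unpaired fit stayed the main one, and paired values are given for both members and where they change a call. The labels do not say what a number marks. Alternatives were other scalings, filters, a pseudocount of 0.1, blocks, prior variances, array weights, an exact rank-sum test and fits without single samples or sets.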

Additional observations from a re-analysis of the deposited data

Results flagged for a closer look

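One sample stood apart from its group by more than the gap expected of 6 values. AT2G48090, one of the 5 genes most like AT3G23940, was at -4.56 on the normalized log2 scale in WT 3, while the rest of the WT samples lay between -1.46 and -0.37. Without WT 3 its r with AT3G23940 was 0.42. Of 30 groups of values examined this was 1, where 1.5 are expected by chance at 1 in 20.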

How the results depend on the processing

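After quantile normalization neither gene passed with the sample number as a replicate block, at log2 changes of -0.62 (adjusted p = 0.0604) for AT3G23940 and 0.03 (0.912) for AT3G58610. AT-HF passed with and without it, and 4 of the 10 genes most like the members came to pass with it. Over all spots 31.8% passed with the block and 12.8% without it, and 17.5% against 6.39% passed as higher in tpt1. AT3G23940 turned to 0.33 on the deposited scale, with or without the number or the set as a block, and passed with a pseudocount of 0.1 (-0.48, adjusted p = 0.0436) and with the set as a block (-0.62), but not with that block on averaged neighbours (adjusted p = 0.159). In the pseudocount fit 13.6% of all spots passed, and 7.79% passed as lower in tpt1. Leaving out single samples gave AT3G23940 changes of -0.79 to -0.53, and only the fit without WT 3 passed. AT3G58610 passed on the deposited scale, with or without the number or the set as a block (0.96). There 46.4% of all spots passed as higher without a block, 71.2% with the number and 67.5% with the set as a block. The change of AT3G58610 near 0 after quantile normalization turned below 0 with cyclic loess (-0.011), a pseudocount (-0.032), array weights (-0.034), without numbers 3 and 4 (-0.088) or 5 and 6 (-0.092), and was 0.28 without 1 and 2. Without single samples it was -0.087 to 0.17. Spots called numbered 364, but 1396 on the deposited scale, 906 with the replicate block, 866 with the set as a block, 122 with a random block, 191 without numbers 1 and 2 and 162 without 3 and 4, and 272 to 338 without single samples. List genes called numbered 1, or 2 on the deposited scale, where AT3G58610 joined AT-HF. The ratio difference ran from -0.83 to -0.53 without single samples. It passed without tpt1 1 (-0.83, exact permutation test, adjusted p = 0.039) only through the joint adjustment with the AT3G23940 percentile. The AT3G23940 percentile difference ran from -15.1 to -10.2 without single samples. It passed without WT 3, and without tpt1 1 only through the joint adjustment, as its unadjusted exact p rose to 0.026. When spots at 0 were ranked too it was -12.8 and passed (exact permutation test, adjusted p = 0.0195). The AT3G58610 percentile difference ran from -1.67 to 4.81, and was -0.70 with spots at 0 ranked, 7.35 with numbers 1 and 2 left out, -1.25 with 3 and 4 left out and -1.86 with 5 and 6 left out. The causes were not tested.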
